A study of Mus musculus with 21 samples.

Results

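The cells described here are the Cspg4/Bche/Wnt4 cells of a single-cell RNA sequencing study of mouse melanoma. A cell was counted as one when it held at least 1 unique molecular identifier (UMI, a tag that marks 1 captured RNA molecule) of at least 2 of the 3 genes Cspg4, Bche and Wnt4 and no UMI of Ptprc, Pecam1, Rgs5, Col1a2 or Upk3b. The 5 excluded genes mark leukocytes, endothelium, mural cells, fibroblasts and mesothelium. The rule found 5851 such cells among 100359, or 5.83% of all cells. Their identity was given as unclear, and their melanoma, Schwann, mesothelial and epithelial genes were therefore examined.

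MT-ret melanoma fragments were transplanted subcutaneously into 8- to 10-week-old mT/mG mice of both sexes, which carry tdTomato in all host cells because no Cre was present, while the graft is unlabelled. The primary tumor was resected and the mice later developed lung metastases. Cells were sorted as tdTomato+ or tdTomato+ CD45- for the tumor microenvironment (TME) libraries and as melanoma cells by the absence of tdTomato for the malignant melanoma (MM) libraries, and lungs of unchallenged mice served as control. After libraries with identical values were counted once, there were 4 metastasis TME, 4 primary tumor TME, 2 metastasis MM, 2 primary tumor MM and 4 unchallenged lung libraries. Replicate 1-3 pooled several samples, and all replicate 5 tumor libraries carry the same mouse number in their names. Libraries of 1 mouse are not independent, which p-values over libraries do not take into account. Metastasis and primary tumor TME replicate 7 held the same values as replicate 5 but carry another mouse number. The mouse is thus known from the names only.

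Cspg4 encodes NG2, a transmembrane chondroitin sulfate proteoglycan of melanoma cells, pericytes and glial precursors that binds collagens and integrins. Bche encodes butyrylcholinesterase, a secreted esterase found in plasma, and Wnt4 encodes a secreted Wnt ligand. Melanocytes and Schwann cells both arise from the neural crest under the transcription factor Sox10, and melanoma cells that lose pigment genes often gain crest and matrix genes. On GRCm38, Cspg4 lies at chr9:56865033-56899870 on the plus strand, Bche at chr3:73635808-73708415 on the minus strand and Wnt4 at chr4:137277489-137299726 on the plus strand, all annotated as protein-coding.

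Some libraries stood apart from their labels. The library labelled metastasis MM replicate 4 held 279 melanoma class cells among 638 and a UMI of an excluded gene in 34.5% of its cells, against 0.141% to 0.417% in the other 3 MM libraries. The library labelled metastasis TME replicate 5 held 2731 melanoma class cells among 5166. Metastasis MM replicate 6 had the same values as metastasis TME replicate 6, so that the sort of these cells cannot be told apart, and they were counted once as TME. Library depth ranged from 1777036 to 60339415 UMIs, and the largest number of cell barcodes shared by a pair of libraries was 227.

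Nearly all Cspg4/Bche/Wnt4 cells came from tumor-bearing mice. The sorted MM libraries held 4858 of them (83.0%), the TME libraries 992 and the unchallenged lungs 1 among 37386 cells. In the MM libraries they made up 10.7% of metastasis replicate 4 (68 cells), 17.4% of metastasis replicate 5 (1965), 2.82% of primary tumor replicate 4 (859) and 30.3% of primary tumor replicate 5 (1966). The replicate 4 and 5 libraries of the primary tumor thus bracketed both metastasis libraries.

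In the metastasis TME libraries the share was 0 of 785 cells in replicate 1-3, which allows up to 0.382%, then 0.151% in replicate 4, 15.8% in replicate 5 and 8.78% in replicate 6. The primary tumor TME libraries held 1.20%, 1.63%, 5.28% and 0.378% in replicates 1-3, 4, 5 and 6. The single cell of the unchallenged lung held Cspg4 and Bche, had no melanoma marker and fell in the endothelial class. These limits cover counting error only.

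The share was 14.02% ± 4.75 (SD, n = 2) in metastasis MM and 16.6% ± 19.5 (n = 2) in primary tumor MM libraries, a difference of -2.56 points that ran from -16.3 to 11.2 points when 1 library was left out. An exact permutation test (two-sided, as are all such tests here) gave p = 1, where 2 against 2 libraries cannot go below 0.333. In TME libraries the share was 6.18% ± 7.61 (n = 4) at metastases and 2.12% ± 2.17 (n = 4) at primary tumors (exact permutation p = 0.429), or 0.856 points higher without metastasis TME replicate 5. That difference of 4.06 points became 0.573 points with each cell thinned to 1000 UMIs and -0.0062 points with all 3 markers required. Against the unchallenged lung, at 0.00416% ± 0.00832 (n = 4), the metastasis TME share was 6.18 points higher (exact permutation p = 0.143), or 2.97 points without metastasis TME replicate 5. MM libraries exceeded the TME libraries of the same tumor sites by 11.1 points (4 against 8 libraries, exact permutation p = 0.0606), which became 12.8 points at p = 0.0242 without metastasis TME replicate 5 and 15.3 points at p = 0.0242 without primary tumor MM replicate 4, but 6.13 points at p = 0.182 without primary tumor MM replicate 5. The rule removes most host cells, which differ in number between the sorts. As a share of melanoma class cells the values were 17.6% and 17.5% in metastasis MM replicates 4 and 5, 3.03% and 30.6% in primary tumor MM replicates 4 and 5, 26.1% and 27.9% in metastasis TME replicates 5 and 6 and 24.4% in primary tumor TME replicate 4. On that denominator 3 of the 4 MM libraries lay below all 3 of these TME libraries. Melanoma class cells outside the rule had medians of 6878.5, 6456 and 7370 UMIs in these TME libraries. In the MM libraries, in the order above, they had 4853, 3842, 1674 and 3546 UMIs. The part of depth in this order was not tested. The other TME libraries held at most 26 melanoma class cells. None of the 4 comparisons of shares of all cells passed 0.05 before adjustment for their number.

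**Figure D1:**
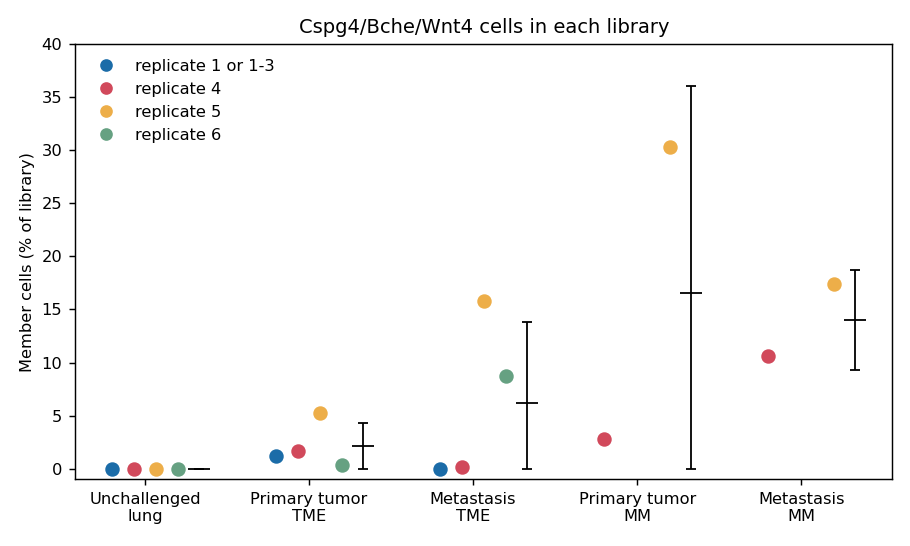
Percent of each library's cells that were Cspg4/Bche/Wnt4 cells (y axis), by group (x axis), with 1 point per library coloured by replicate number and the group mean ± SD beside it, the lower bar stopped at 0. Replicate 5 is the highest point of each tumor group, up to 30.3% in primary tumor MM, and the 4 unchallenged lungs lie at or near 0.

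The marker genes were often found at low counts. Exactly 2 of the 3 genes were detected in 5010 cells and all 3 in 841 (14.4%), and 1801 cells held only 1 UMI of each detected marker. Just outside the rule lay 11577 cells with 1 UMI of 1 marker, and 310 cells with 2 or 3 markers that held a UMI of an excluded gene, 174 of them a single such UMI. The excluding gene was Col1a2 in 203 cells, Pecam1 in 88, Ptprc in 28, Rgs5 in 27 and Upk3b in 15. When each cell was thinned to 1000 UMIs, 997 cells met the rule and 974 of these were among the original cells.

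The pairs differed between libraries. Cspg4 with Bche was the pair in 3472 cells (59.3%), Cspg4 with Wnt4 in 1348 (23.0%) and Bche with Wnt4 in 190 (3.25%). Cspg4 with Bche made up 83.5% of the cells in metastasis MM replicate 5, but 39.3% and 43.4% in primary tumor MM replicates 4 and 5. The complete set of 3 markers was found in 4.73% of the cells of metastasis MM replicate 5 and in 22.8% of those of primary tumor MM replicate 5.

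**Figure D2:**
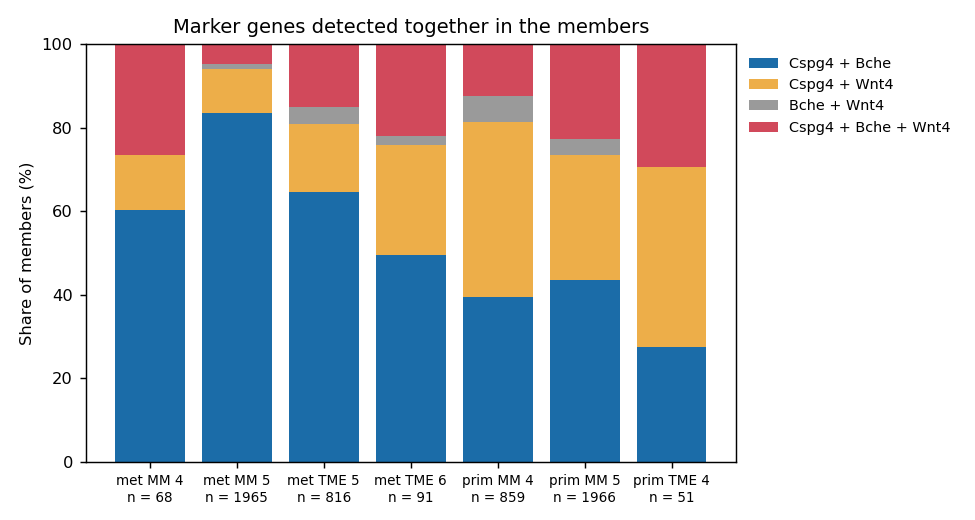
Share of Cspg4/Bche/Wnt4 cells (y axis, %) with each combination of the 3 marker genes, in the 7 libraries with at least 20 such cells (met, lung metastasis; prim, primary tumor; n, number of cells). The Cspg4 and Bche pair ranges from 27.5% in primary tumor TME replicate 4 to 83.5% in metastasis MM replicate 5.

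At an equal depth of 1000 UMIs per cell, the markers met in the same cell somewhat more often than their separate frequencies give. In primary tumor MM replicate 5, 207 cells held both Cspg4 and Bche where independence gives 146, and 82 cells held both Bche and Wnt4 where it gives 38.3. In primary tumor MM replicate 4 the corresponding counts were 91 against 70.5 and 35 against 17.6. Metastasis MM replicate 5 had 158 against 128 for Cspg4 with Bche and 6 against 6.87 for Bche with Wnt4, so the excess of the latter pair was not seen in that library. The other pair with Wnt4, Cspg4 with Wnt4, was at 173 against 120 in primary tumor MM replicate 5 and at 27 against 19.9 in metastasis MM replicate 5.

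In the MM libraries, cells that met the rule held more RNA molecules than other cells. Their median was 7528.5 UMIs in metastasis replicate 4, 5518 in metastasis replicate 5, 3537 in primary tumor replicate 4 and 4482 in primary tumor replicate 5. The other cells without an excluded gene had medians of 3713, 3829, 1648 and 3425 UMIs in the same order. Deeper cells meet a rule of detection more easily, and the part of depth in what follows was not tested except where cells were thinned. The median share of mitochondrial UMIs was 10.4%, 9.43%, 3.31% and 10.1% in these cells and 5.65%, 11.1%, 1.10% and 11.8% in the others.

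The data go against an unknown identity for most of these cells. With 6 melanoma markers (Pmel, Mlana, Dct, Tyrp1, Cited1 and Sox10), of which a cell had to hold at least 3 and lead any other class by 2, 5386 of 5851 cells (92.1%) fell in the melanoma class. Another 444 (7.59%) remained unassigned, and 21 fell in another class, 13 of them ciliated, 3 fibroblast, 3 leukocyte and 2 endothelial. By library the melanoma class held 100.0% of the Cspg4/Bche/Wnt4 cells in metastasis MM replicate 5, 93.9% in primary tumor MM replicate 5, 86.7% in primary tumor MM replicate 4 and 72.1% in metastasis MM replicate 4. In TME libraries it held 87.4% in metastasis replicate 5, 45.1% in metastasis replicate 6, and 50.0%, 39.2%, 18.8% and 0 in primary tumor replicates 1-3, 4, 5 and 6, where the cells number 8, 51, 16 and 9. The pooled share thus rests on a few large libraries. No cell fell in the mesothelial, mural or alveolar type 2 class, though the rule had removed cells with a UMI of Upk3b or Rgs5, which partly fixed this for the mesothelial and mural classes. At 1000 UMIs per cell the melanoma class held 51.5% of them, against 61.2% of the other cells of the MM libraries (85.8% at their own depth).

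Dct, the dopachrome tautomerase of the melanin pathway (chr14:118012790-118052244), had a UMI in 5846 of 5851 cells (99.9%), and 2 cells had none of the 6 melanoma markers. A single Dct UMI is weak evidence in these tissues, because 65.8% of leukocyte class cells of the tumor TME libraries also held one (median 4686 UMIs, against 5194 in the Cspg4/Bche/Wnt4 cells), while 0.404% of unchallenged lung cells did (median 1913 UMIs). The level separated them. In metastasis TME replicate 5, Dct was at 17202 CPM (a gene's UMIs summed over a population and scaled to a common library total) in the Cspg4/Bche/Wnt4 cells, 3475 CPM in leukocyte class and 3950 CPM in endothelial class cells. In metastasis TME replicate 6 the levels were 7969, 867 and 1059 CPM, and in primary tumor TME replicate 4 they were 11737, 229 and 113 CPM.

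Sox10, the transcription factor that defines crest-derived melanocytes and glia, was at 276, 228, 213 and 282 CPM in the MM libraries (metastasis replicates 4 and 5, then primary tumor 4 and 5) and at 250.2, 288 and 307 CPM in metastasis TME replicates 5 and 6 and primary tumor TME replicate 4. Fibroblast class cells of those TME libraries had 20.0, 13.7 and 0 CPM, so the populations did not overlap. Sox10 is among the melanoma markers over which the fibroblast class had to lead, which partly fixed this gap. Mitf, the master regulator of melanocytes, ranged from 253 to 708 CPM (median 443), and Syt4, a synaptotagmin, from 1507 to 2933 CPM (median 2122). Pmel, the amyloid protein of melanosome fibrils, ranged from 39.9 CPM in metastasis TME replicate 6 to 1181 CPM in metastasis MM replicate 5.

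Against fibroblast class cells of the same 3 TME libraries, 2056 of 8856 genes (23.2%) passed edgeR's quasi-likelihood test at an adjusted p under 0.05, with 880 higher (9.94%) and 1176 lower (13.3%). Of 18 listed melanoma genes 16 were tested and 14 rose, with a median log2 difference of 3.10 beside -0.01 over all genes. Sox10 was higher by 4.68 (adjusted p = 0.00947), Syt4 by 4.34 (0.00191) and Mitf by 3.70 (2.74e-06) on the log2 scale (edgeR, 3 libraries). Of 12 fibroblast genes 11 fell. The fibroblast class was chosen on 6 fibroblast markers and a lead over the melanoma markers, and absence of Col1a2 was part of the rule, so that the counts of fibroblast and melanoma genes, Sox10 included, were partly fixed by the choice of cells.

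Schwann and neural crest genes were present in part. Erbb3, the neuregulin receptor, lay between 81.9 and 171 CPM (median 117) and Cdh19, a crest cadherin, between 59.6 and 225 CPM (median 88.1). Mbp, the myelin basic protein, did not exceed 11.6 CPM in any of the 7 libraries. Against fibroblast class cells 8 of 12 tested crest genes rose and 2 fell.

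Mesothelial genes were low but not all absent. The 14 listed genes summed to between 3.31 and 113 CPM (median 16.6), against 42.5 to 919 CPM in fibroblast class cells. Msln, the mesothelin of serosal lining cells, had no UMI in 5 of 7 libraries and at most 3.33 CPM, and Wt1, their transcription factor, was seen only in metastasis TME replicate 5 at 0.473 CPM. Fibroblast class cells had 117, 302 and 1.46 CPM of Wt1. Of 6 mesothelial genes tested against those cells, 5 fell and none rose. The rule had removed cells with a UMI of Upk3b, so low mesothelial genes were partly fixed by the choice of cells. Fibroblast class cells of the metastasis TME libraries themselves held Wt1, so these falls do not test a mesothelial identity. A comparison with mesothelial class cells could not be fitted, because only 11 such cells were found.

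Epithelial genes were at low levels outside the lung metastasis TME. Krt8, a simple-epithelium keratin, was at 1.94, 0, 0 and 0.0871 CPM in the MM libraries and 0 in primary tumor TME replicate 4, but at 13.7 and 66.5 CPM in metastasis TME replicates 5 and 6. Epcam followed with 6.00 and 28.3 CPM there and at most 3.89 CPM elsewhere. In the same 2 libraries Scgb1a1, the secretory protein of airway club cells, was at 1867 and 1757 CPM, against at most 1.94 CPM in the other 5. Fibroblast class cells of these 2 libraries held 3028 and 2327 CPM of it. The rule excludes no airway gene. In these 2 libraries 12 and 4 of the Cspg4/Bche/Wnt4 cells were assigned to a class other than melanoma, and over all libraries 13 were ciliated. The part of lung RNA, or of such cells, in the epithelial values was not tested.

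Genes of the Y chromosome (Ddx3y, Uty, Kdm5d and Eif2s3y) had no UMI in these cells in any of the 7 libraries with at least 20 of them, while Xist, the RNA of the inactive X, was at 479 to 1678 CPM. Ret, whose oncogenic form drives this model, was at 16.8 to 66.1 CPM, and counts do not tell the transgene from the endogenous gene. Of these 6 genes, 4 also had no UMI in fibroblast class cells of the 3 TME libraries, where the 6 summed to 1192 to 2656 CPM. Y genes and Xist were not tested as a sign of host or graft.

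**Figure D3:**
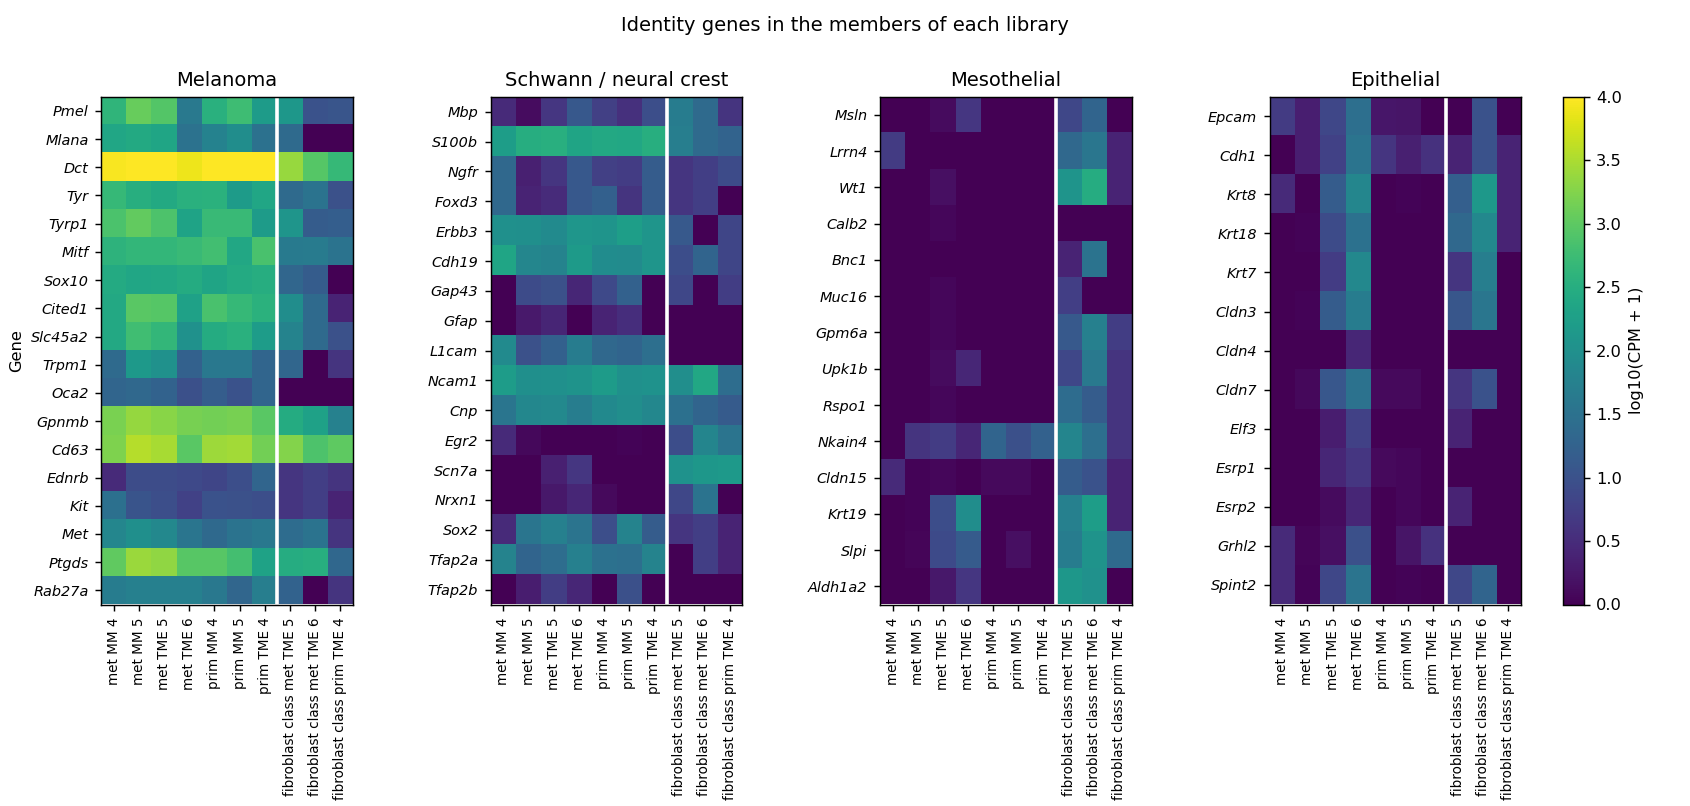
Levels of melanoma, Schwann or neural crest, mesothelial and epithelial genes (rows) in Cspg4/Bche/Wnt4 cells of 7 libraries and, right of the white line, in fibroblast class cells of 3 libraries (met, lung metastasis; prim, primary tumor), as log10(CPM + 1) by colour, with values above 4.0 shown as 4.0. Dct is high in every library, while Wt1 and Msln stay near 0 and keratins appear in metastasis TME replicates 5 and 6, where Krt8 reached 66.5 CPM.

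To learn what else set these cells apart, they were compared with the other cells of the 4 MM libraries, which held fewer than 2 markers and no excluded gene. Of 13210 genes tested, 74 (0.56%) passed, 67 higher (0.507%) and 7 lower (0.053%), with 1588 genes at an unadjusted p under 0.05. Without metastasis MM replicate 4, the library with many host cells, 14 genes passed. The 8 genes of the rule are left out of the gene lists and of the genes ranked by fold. Counts of genes passing include those of the 8 that were tested, and without them 64 genes were higher here. Cspg4 was at 1112, 345, 439.7 and 458 CPM in the chosen cells and 199, 165, 111 and 237 CPM in the others, Bche at 340.1, 194, 162 and 197 against 31.04, 23.6, 17.6 and 17.8 CPM, and Wnt4 at 149.7, 30.9, 269 and 186 against 6.21, 3.12, 17.8 and 14.7 CPM, as the rule requires.

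Aqp1, a water channel (chr6:55336432-55348555), was at 124, 13.9, 97.4 and 125 CPM in the Cspg4/Bche/Wnt4 cells of metastasis MM replicates 4 and 5 and primary tumor MM replicates 4 and 5. The other cells had 11.8, 6.79, 15.03 and 22.1 CPM. Metastasis MM replicate 5 was the low library in both populations, and its Aqp1 level in the chosen cells overlapped the others' range. Aqp1 rose by 2.13 on the log2 scale (SE 0.25, adjusted p = 0.00377, edgeR). This call held in 9 of 12 alternative settings of the processing. It was lost, among others, when cells with an excluded gene were kept (adjusted p = 0.164, edgeR).

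Col15a1, the basement membrane collagen XV (chr4:47208161-47313167), was at 54.4, 3.09, 15.5 and 23.4 CPM against 4.35, 1.62, 3.00 and 5.58 CPM, and rose by 1.88 (adjusted p = 0.00366, edgeR). Cp, the copper-carrying ferroxidase ceruloplasmin (chr3:19957054-20009145), was at 330.4, 12.6, 169.6 and 109 CPM against 62.1, 6.12, 33.3 and 44.7 CPM and rose by 1.61 (adjusted p = 0.00161, edgeR). In each library the chosen cells lay above the others for both genes, and each call held in 11 of 12 alternatives.

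Other genes that rose in all 4 MM libraries were Nebl (log2 difference 1.83), a nebulin-like actin protein, the collagens Col2a1 (1.73) and Col8a1 (1.62), the matrix proteins Spon1 (1.53) and Ccn2 (1.41), Pdlim4 (1.39), an actin-binding protein, the latent TGF-beta binding protein Ltbp1 (1.25), the semaphorin Sema3d (1.18) and the serpin Serpina3n (1.10). Serpina3n was at 519, 172, 1143 and 683 CPM against 114, 108, 395 and 404 CPM (adjusted p = 0.0403, edgeR). Of 12 alternatives, the calls of Spon1 and Sema3d held in 12 and those of Nebl, Col8a1, Ccn2 and Ltbp1 in 11. That of Pdlim4 held in 10, and those of Col2a1 and Serpina3n in 8. Wfdc2 (-3.51) and Cbr2 (-3.22), genes of airway epithelium, fell. They in the other cells of metastasis MM replicate 4 reached 96.8 and 201 CPM, but in the other cells of the other 3 libraries no more than 1.09 and 1.93 CPM. Hbb-bs (-3.75), Hba-a1 (-3.66) and Scgb1a1 (-3.15) also fell, Scgb1a1 in 3 of 4 libraries, and the globin genes have near-identical copies that share reads.

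Of the 5 tested genes of cholinergic signalling, 1 rose: Prima1, the membrane anchor of cholinesterases (chr12:103196908-103242150), was at 13.6, 2.78, 12.8 and 14.8 CPM against 1.24, 1.00, 2.96 and 3.26 CPM (log2 difference 1.88, adjusted p = 0.00158, edgeR). Ache, acetylcholinesterase, had a mean of 3.41 ± 2.05 CPM (SD, n = 4) against 1.07 ± 0.247 CPM and did not pass (adjusted p = 0.257, edgeR). Of 15 Wnt receptors and co-receptors tested, Fzd9 rose (0.69, adjusted p = 0.0173, edgeR) and none fell, with a median of 0.27 beside -0.03 over all genes. None of 10 Wnt targets and antagonists passed, where 0.56% of all genes tested did. Axin2, a target of canonical Wnt signalling, was at 13.1 ± 7.64 CPM against 6.69 ± 0.861 CPM (adjusted p = 0.425, edgeR).

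Of 18 tested NG2 partners and matrix genes, Col5a1, a chain of fibrillar collagen V, rose by 1.04 (adjusted p = 0.0143, edgeR) and none fell, with 16 of 18 differences positive and a median of 0.53. Among 15 genes of a dedifferentiated mesenchymal state, Tnc, the matrix protein tenascin C, rose by 1.66 (adjusted p = 0.0443, edgeR), a call that held in 7 of 12 alternatives (adjusted p up to 0.231). Fn1, fibronectin, was higher in 4 of 4 libraries (2646 ± 1771 CPM against 1293 ± 425 CPM) without passing (adjusted p = 0.283, edgeR). Of 11 neuronal adhesion genes tested 2 rose: Chl1, a neural cell adhesion protein, rose by 0.86 (373, 193, 323 and 325 CPM against 112, 115, 144 and 224 CPM), and Ptprz1, a receptor phosphatase, rose by 1.40. The call of Chl1 held in 8 of 12 alternatives (adjusted p up to 0.162, edgeR or DESeq2).

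Of the crest genes, L1cam, an adhesion protein of axons and Schwann cells, was the 1 of 15 tested that passed (0.76, adjusted p = 0.0347, edgeR), and 12 of 15 were positive with a median of 0.33. The call of L1cam held in 8 of 12 alternatives. Erbb3 was higher in 4 of 4 libraries (121 ± 34.4 CPM against 76.0 ± 36.9 CPM) with an adjusted p of 0.190 (edgeR), and Cdh19 likewise (116 ± 73.5 CPM against 66.6 ± 16.0 CPM, adjusted p = 0.299, edgeR).

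None of 18 melanoma genes passed in this comparison, where 0.56% of all genes tested did, while 15 of 18 were negative with a median of -0.41 beside -0.03 over all genes. Trpm1, a melanocyte cation channel, was at 61.9 ± 57.3 CPM against 108 ± 65.3 CPM (adjusted p = 0.0736, edgeR), and Tyrp1, a melanin enzyme, was at 709 ± 268 CPM against 954 ± 292 CPM (adjusted p = 0.190, edgeR). Each was lower in 4 of 4 libraries, by less than the spread between libraries. With each cell thinned to 1000 UMIs before the rule was applied, 135 genes passed (1.21%, 3 libraries, without metastasis MM replicate 4), and 9 of 18 melanoma genes fell and none rose. With all 3 markers required, 588 genes passed (4.54%, the same 3 libraries, on which the rule as given called 14), 9 of 18 melanoma genes fell, 6 of 15 crest genes rose and 8 of 18 NG2 partners rose.

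A second comparison used melanoma class cells that did not meet the rule, in 7 libraries. Of 13292 genes 554 passed (4.17%), 417 higher (3.14%) and 137 lower (1.03%). With the genes of the rule left out, 414 were higher. Without metastasis TME replicate 5, which by its name shares its mouse with other libraries, 336 passed, and without primary tumor MM replicate 5, 340. This class was itself chosen on 6 pigment and crest genes, while the Cspg4/Bche/Wnt4 cells were not, so that a fall of those 6, and of pigment genes expressed with them, was partly fixed by the choice. Its cells also had to lead the markers of every other class, which the Cspg4/Bche/Wnt4 cells did not. Rises of such markers, and of genes expressed with them, were thus partly fixed too. Against the other MM cells, which were not chosen on them, none of the 18 melanoma genes passed. With that limit, Trpm1 fell by 0.95 on the log2 scale, Ptgds, a prostaglandin D synthase, by 0.88 and Atp6v0d2, a proton pump subunit, by 0.99, each in 7 of 7 libraries. Lgals3, galectin 3, fell by 0.84, from 2511 ± 562 CPM to 1562 ± 543 CPM (adjusted p = 0.00187, edgeR).

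Among genes at a mean of at least 20 CPM, those that rose most against the melanoma class were Aqp1 (2.07), Col8a1 (1.88), Ccn2 (1.85), Col15a1 (1.82), Cp (1.81), Col2a1 (1.76) and Nebl (1.74), all higher in 7 of 7 libraries. The chosen cells of the MM libraries enter both comparisons, so the same direction there is not a second observation. In the 3 TME libraries Aqp1 was at 76.2, 119.7 and 274 CPM against 26.5, 20.8 and 42.1 CPM, with no overlap. Col15a1 was at 11.7, 46.6 and 52.6 CPM there against 4.80, 7.42 and 4.68 CPM. These genes are not particular to the chosen cells. Fibroblast class cells of the same 3 libraries held more Col15a1, at 209, 183 and 791 CPM. Their Aqp1 was lower than in the chosen cells, at 30.8, 64.0 and 5.86 CPM. Their Cp was at 303, 329 and 148 CPM, against 43.2, 259 and 332 CPM in the chosen cells.

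By list, 5 of 16 crest genes rose against the melanoma class (Erbb3 0.49, Cdh19 0.38, L1cam 0.89, Sox2 0.72 and Tfap2b 1.57), as did 7 of 21 NG2 partners and matrix genes, with 1 lower, and 4 of 15 mesenchymal genes (Fn1 0.69, Axl 0.79, Nes 0.66 and Tnc 1.71). Of 5 cholinergic genes Prima1 (2.08) and Ache (1.02) rose. The call of Ache held in 5 of 13 alternatives (adjusted p up to 0.315, edgeR or DESeq2) and that of Cdh19 in 3 of 13 (up to 0.0921). Of 18 melanoma genes 11 fell, among them the class markers Pmel, Mlana, Tyrp1 and Cited1, whose fall the choice of the class partly fixed. Of 13 listed mural genes 6 were tested and Myl9 (0.84) and Mcam (0.69) rose. Myl9 is a marker of the mural class, over which melanoma class cells had to lead, so the choice of the class partly fixed its rise. Of 11 alveolar type 1 genes Cldn18 (2.75) and Emp2 (0.38) rose, and of 12 neuronal adhesion genes Chl1 (0.81), Robo1 (0.76), Sema3c (0.65) and Ptprz1 (1.45) rose. Robo1 was called in 7 of 13 alternatives (adjusted p up to 0.212, edgeR or DESeq2), Emp2 in 9 of 13 (up to 0.156) and Cldn18 in 9 of 10 (up to 0.757). Also, 3 of 10 epithelial genes rose (Epcam 1.13, Cldn7 1.57 and Spint2 1.68), and the epithelial levels were highest in metastasis TME replicates 5 and 6. In these libraries 12 and 4 of the chosen cells were assigned to another class, and their part in these rises was not tested. The calls held in 8 of 12 alternatives for Epcam (adjusted p up to 0.214), 9 of 13 for Cldn7 (up to 0.580) and 8 of 12 for Spint2 (up to 0.330), by edgeR or DESeq2. Of 5 tested mesothelial genes Nkain4 rose, at 7.41 ± 7.29 CPM against 3.36 ± 2.57 CPM (log2 difference 0.82, adjusted p = 0.00341, edgeR), higher in 5 of 7 libraries. None of 14 hypoxia and glycolysis genes and none of 12 interferon and MHC class I genes passed, where 4.17% of all genes tested did.

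Levels of several genes differed with the number of markers detected. Aqp1 was higher at every step in 2 of 4 libraries. In primary tumor MM replicate 5, Aqp1 was at 22.4, 22.0, 54.2 and 342 CPM in cells with 0, 1, 2 and 3 markers, and in metastasis MM replicate 5 at 6.36, 7.02, 13.3 and 25.7 CPM. Cp went from 32.8 to 34.8, 122 and 366 CPM in primary tumor MM replicate 4. Cells with all 3 markers held the highest Aqp1 and Cp levels in each of the 4 MM libraries. Col15a1, Cp, Col2a1, Spon1, Ltbp1, Serpina3n, Sema3d, Erbb3, Cdh19, Zeb2, Fn1, Col5a1, Col4a1, Col4a2, Itga6, Lamb1 and Lamc1 increased at every step in 4 of 4 libraries. Of these, Col15a1, Cp, Col2a1, Spon1, Ltbp1, Serpina3n and Sema3d were named because cells with 2 or 3 markers exceeded the others in these libraries. This partly fixed their order, and that of Aqp1. Most other listed genes did not rise at every step in all 4 libraries.

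Dct, Trpm1, Cited1, Chchd10 and Syngr1 decreased at every step in 4 of 4 libraries. Trpm1, Cited1, Chchd10 and Syngr1 were named for their fall against the melanoma class, partly in the same cells, which partly fixed their order. Dct was at 14997, 14896, 13040 and 10367 CPM with 0, 1, 2 and 3 markers in primary tumor MM replicate 5, and at 13348, 13221, 11991 and 7644 CPM in primary tumor MM replicate 4. Trpm1 was at 219, 189, 149.9 and 96.7 CPM in metastasis MM replicate 5. These orders are a description with no test, the bin of 3 markers in metastasis MM replicate 4 held 18 cells, and the median depth also rose at each step in 3 of 4 libraries (2885, 3739, 4310 and 5111 UMIs in primary tumor MM replicate 5), while in metastasis MM replicate 4 it was 8030.5 UMIs at 2 markers and 6806.5 at 3. Malat1, a nuclear RNA, increased in every library too, from 8372 to 41379 CPM in primary tumor MM replicate 4 and from 18643 to 24352 CPM in primary tumor MM replicate 5. Its part in these orders was not tested.

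**Figure D4:**
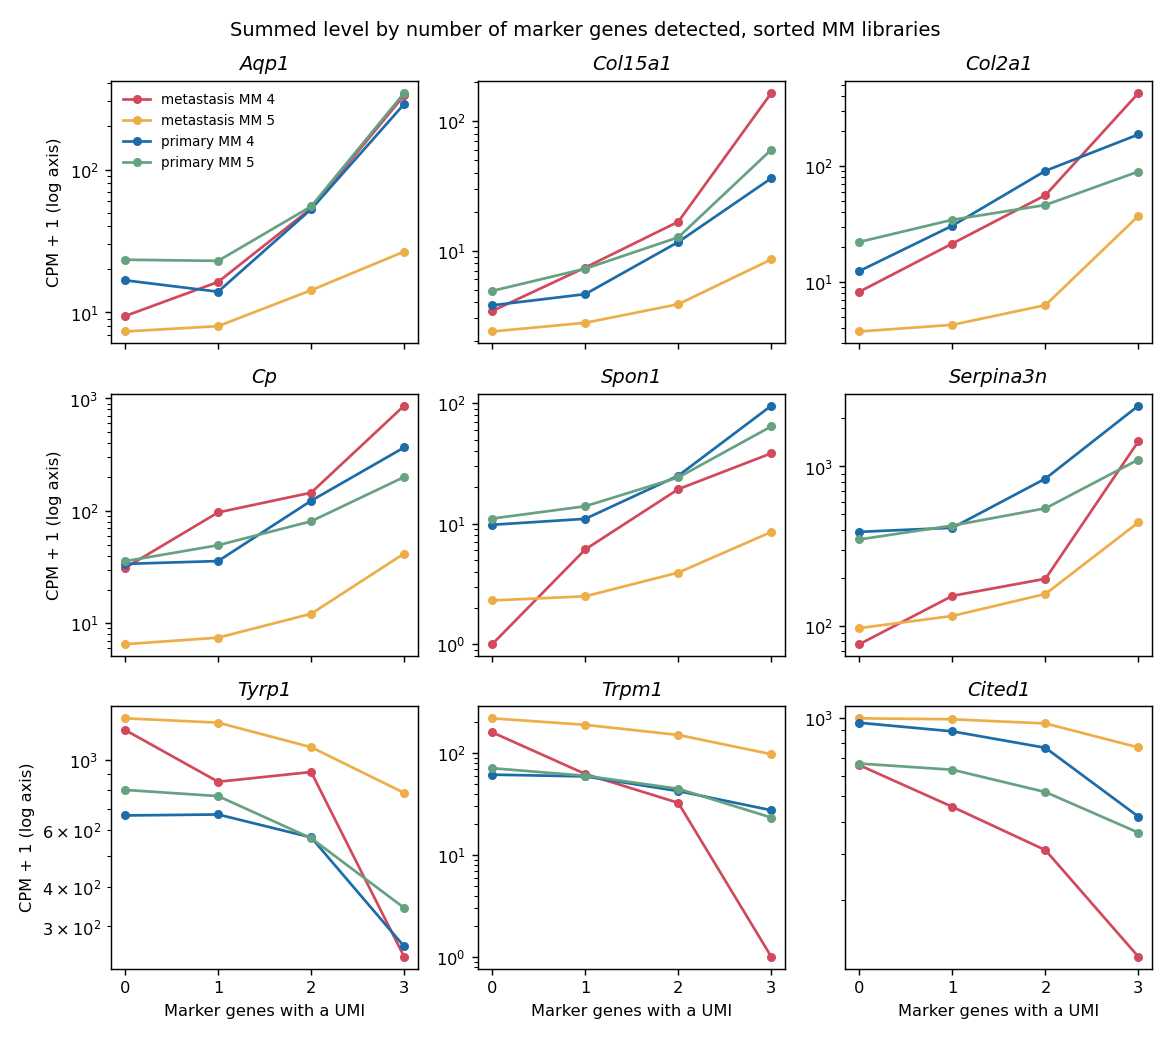
Summed level (y axes, CPM + 1, log scale) of 9 genes in cells with 0, 1, 2 or 3 of the marker genes detected (x axes) in the 4 sorted MM libraries, 1 line per library. Aqp1 and the matrix and secreted genes are highest at 3 markers, with Aqp1 reaching 342 CPM at 3 markers in primary tumor MM replicate 5, and Tyrp1, Trpm1 and Cited1 are lowest at 3 markers.

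Among the Cspg4/Bche/Wnt4 cells, the 444 unassigned cells were set beside the 5386 melanoma class cells, a class set by pigment and crest genes. The libraries were mixed in other proportions, since metastasis MM replicate 5 gave 1965 of the melanoma class cells and none of the unassigned, so values are given within libraries. In metastasis TME replicates 5 and 6, primary tumor MM replicates 4 and 5 and primary tumor TME replicate 4, Aqp1 was at 281, 186, 127, 277 and 408 CPM in unassigned cells and at 61.8, 71.2, 95.1, 119.5 and 133 CPM in melanoma class cells. Col15a1 was at 37.1, 70.7, 34.3, 46.5 and 66.2 CPM against 9.56, 29.1, 14.01, 22.6 and 40.4 CPM. Both genes were thus higher in the unassigned cells in 5 of 5 libraries, and the size of the difference varied. Pooled over libraries, the unassigned cells had a median of 3094 UMIs and Malat1 at 56961 CPM, against 5365.5 UMIs and 24398 CPM.

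Whether the cells differed by site was asked in 7 libraries, 4 from metastases and 3 from primary tumors, with sort as a covariate. None of 12113 genes (0%) passed edgeR's test in either direction, 494 had an unadjusted p under 0.05, and DESeq2 called 35 (8 higher and 27 lower in metastases). With the replicate number as a block 62 passed, 26 higher and 36 lower. By the names of these 7 libraries, the number 5 stands for the same mouse at both sites and the number 4 for different mice. Replicate 6 entered from the metastasis alone. The number also follows the sequencing run, which was run 2 for replicate 4 and run 3 for replicates 5 and 6. With the run as a covariate, or within run 3 alone, 0 genes passed (edgeR, 390 and 126 at an unadjusted p under 0.05). Site and mouse cannot be told apart for most libraries. Of the listed genes, the following were chosen after their values were seen. Reln, an extracellular matrix glycoprotein, was at 7.43 ± 1.97 CPM in metastases against 0.425 ± 0.396 CPM in primary tumors (adjusted p = 0.249, edgeR), Hmgb2, a proliferation-linked chromatin protein, at 69.8 ± 17.9 against 198 ± 34.2 CPM (adjusted p = 0.396, edgeR), and Met, the hepatocyte growth factor receptor, at 68.2 ± 25.3 against 30.99 ± 8.24 CPM (adjusted p = 0.905, edgeR).

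Most Cspg4/Bche/Wnt4 cells carried S or G2M phase transcripts. A cell was called S or G2M when its mean log-normalized level of 42 S or 52 G2M genes exceeded its mean over all genes. Most genes are at 0 in a cell of 1000 UMIs, so this bar is low and the shares are not fractions of cycling cells. At 1000 UMIs per cell the share called S or G2M was 67.6% and 73.6% in metastasis MM replicates 4 and 5, 81.8% and 82.0% in primary tumor MM replicates 4 and 5, 65.3% and 66.7% in metastasis TME replicates 5 and 6 and 68.6% in primary tumor TME replicate 4. Melanoma class cells of those libraries had 67.1%, 76.9%, 92.5%, 86.5%, 66.2%, 63.7% and 77.4%. The difference was -3.54 points (SD 4.92, n = 7), lower in 5 of 7 libraries, and did not pass an exact sign-flip test (p = 0.109). Phase calls read free RNA too, and no cycling is read from them alone. Without thinning the shares were lower in 7 of 7 libraries, with a mean difference of -4.04 points and an exact p of 0.0156, the smallest that 7 libraries can give. None of 42 S phase genes and none of 52 G2M genes passed against the other MM cells, with medians of -0.24 and -0.28 beside -0.03 over all genes. Of all genes tested there, 0.56% passed. With all 3 markers required, 7 of 42 S phase and 2 of 52 G2M genes fell and none rose (3 libraries), where 1.12% of all genes tested were lower and 3.42% higher.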

How the data were processed

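Single-cell libraries (10x Genomics 3' v3.1) were made from sorted cells. The authors deposited 1 matrix of UMI counts for 32285 genes and 110283 barcodes, which the submitters' processing notes tie to Cell Ranger 6.1.1, Seurat 3.2.2 and GRCm38 (mm10), with a table that gives the library of each barcode. The deposited percent of mitochondrial UMIs per cell was used as given. A deposited log-normalised copy was not used. Of the libraries, 5 held the same values as another, and 9924 barcodes were dropped, which left 100359 cells in 16 libraries. Per the study's methods the authors filtered cells on ribosomal and mitochondrial share and on genes detected. No doublet caller was run here and none is named in the sources. Gene coordinates are from GENCODE vM21.

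UMI counts were summed per library and population and tested with edgeR 4.0.16 (R 4.3.3; quasi-likelihood F test, TMM, filterByExpr, library as block except between sites, Benjamini-Hochberg over all genes tested, called at an adjusted p under 0.05) where a library held at least 20 cells of both populations. DESeq2 1.42.0 was an alternative. Shares were compared with exact permutation tests in SciPy 1.17.1. Python 3.11.15, NumPy 2.4.6 and pandas 2.3.3 were used, with figures in matplotlib 3.10.9. The edgeR step was tested on simulated data with 200 changed genes. A log2 difference is the fitted fold.

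Named single genes were the rule genes, listed genes, and up to 12 genes per direction with the largest fold among those called, at a mean of at least 20 CPM and with the same direction in every library. Col15a1 and the other genes followed by marker number came from these. Members and gene lists were chosen with earlier results of these data known. Nothing says that libraries of a group come from separate mice beyond the mouse numbers used here, so p-values may measure technical spread. Some listed genes are counted in their lists but not reported singly here.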

Additional observations from a re-analysis of the deposited data

Results flagged for a closer look

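In the 4 unchallenged lungs, the share of Cspg4/Bche/Wnt4 cells was 0.0166% in replicate 5 and 0 in the other 3, which set replicate 5 apart by Dixon's criterion for 4 samples. With the other 3 at 0, any value above 0 would meet it, whatever its size. It rests on 1 cell, in which Cspg4 and Bche were detected. The criterion was applied to 7 groups of values, and chance flags about 1 in 20 groups.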

How the results depend on the processing

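Counts of genes at an adjusted p under 0.05, which include the tested genes of the rule, moved with the processing. Against the melanoma class (554 genes), 926 passed with no filter on low counts, 905 with all 3 markers (5 libraries in place of 7) and 873 with the excluded genes ignored (336 to 640 leaving out 1 library). Against fibroblasts (2056), DESeq2 called 1350 (830 to 2289 leaving out 1 library, lowest without metastasis TME replicate 5). Against the other MM cells (74), DESeq2 called 130 and no filter gave 370. All 3 markers gave 588 and thinning 135, both on 3 libraries, where the rule as given called 14. With the excluded genes ignored 69 passed, and of the genes named in the report the calls of Aqp1, Col2a1, Serpina3n, Pdlim4, L1cam, Wfdc2, Cbr2, Col5a1, Tnc, Chl1 and Hbb-bs were lost. Leaving out 1 library gave 14 to 285: 14 without metastasis MM replicate 4, 285 without metastasis MM replicate 5 and 266 without primary tumor MM replicate 5. Between sites (0), DESeq2 called 35, no filter 103 and the excluded genes ignored 1 (0 to 17 leaving out 1 library, 17 without metastasis MM replicate 4). With no replicate block by library, 2 genes passed against the melanoma class, 809 against fibroblasts and 1 against the other MM cells. The replicate block by number between sites gave 62 and also carries the sequencing run, which as a covariate gave 0, as did run 3 alone, but the numbers were not taken as pairs: deviations of the metastasis and primary tumor MM libraries correlated at -0.35 for replicate 4 and 0.17 for replicate 5 across genes, metastasis MM with primary tumor TME replicate 4 at 0.71 and metastasis TME with primary tumor MM replicate 5 at 0.33. The cause of these shifts was not tested.

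The metastasis TME minus unchallenged lung share became 7.82 points with the excluded genes ignored (exact permutation p = 0.0286, the smallest possible). With the replicate block, which joins libraries by number only, it was 8.24 points (exact sign-flip p = 0.25, also the smallest possible). It was 2.97 to 8.24 points leaving out 1 library. The metastasis minus primary tumor TME share was 0.856 to 6.12 points leaving out 1 library and -0.0062 with all 3 markers, the MM share between sites -16.3 to 11.2, and MM minus TME 6.13 to 15.3 points. The phase difference was -4.62 to -2.35 points leaving out 1 library and -4.04 without thinning. Detection depends on depth: thinned to 1000 UMIs, MM exceeded TME libraries by 1.64 points (exact permutation p = 0.158).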

Other observations

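Several gene lists not yet described held no gene that passed against the other cells of the MM libraries. None of the 14 hypoxia and glycolysis genes, 13 interferon and MHC class I genes, 12 immediate early and heat shock genes and 10 glucocorticoid and acute phase genes passed edgeR's test, with median log2 differences of -0.03, -0.11, -0.13 and 0.06 beside -0.03 over all genes. Only 0.56% of all genes tested passed in that comparison, so lists of this size with no call say little about these genes. Against fibroblast class cells, 7 of 11 interferon and MHC class I genes were lower in the Cspg4/Bche/Wnt4 cells and none was higher, where 13.3% of all genes tested were lower and 9.94% higher.

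Wnt4 was also found in host cells. Fibroblast class cells of metastasis TME replicates 5 and 6 held Wnt4 at 400.0 and 503 CPM, above the 76.7 and 183 CPM of the Cspg4/Bche/Wnt4 cells in those libraries, whereas fibroblast class cells of primary tumor TME replicate 4 held 7.32 CPM against 371 CPM. Bche was at 9.23, 13.7 and 0 CPM in the fibroblast class cells of these 3 libraries, against 187, 236 and 196 CPM. Since Cspg4, Bche and Wnt4 chose the cells, these levels carry no test.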
